A study of Mus musculus with 6 samples.

Results

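The growth hormone, STAT5 and IGF1 axis is described here through 10 genes, taken by symbol from a list of receptor, signalling and target genes: Ghr, Prlr, Stat5a, Stat5b, Igf1, Igfals, Socs2, Cish, Bcl6 and Cux2. All 10 were found among the 54446 genes of the count table, and all 10 passed the filter on low counts that left 15368 genes for testing. The measurements come from sequencing of poly-A RNA of mouse liver cells at weeks 0, 2 and 7 of a treatment, with 2 libraries per week and 6 in all. The series title names the treatment as MET/CAT and SB transposase, an enzyme that moves flanked DNA into a genome, and the labels do not say what CAT stands for. The strain label of week 0 replicate 1 is a mix of FVB/N and C57BL/6, and the number after C57BL/ differs in each of the other labels, so the background of those mice is unsure. Age, sex, dose, the promoter of any transgene, and mice kept without treatment to week 2 or 7 are not in the labels, so whatever else goes with the week cannot be told apart from treatment. Library totals ran from 49353453 to 58434358 deposited counts.

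Growth hormone binds its receptor on hepatocytes, and the kinase JAK2 then phosphorylates the transcription factors STAT5A and STAT5B. STAT5 raises transcription of Igf1, whose product is the circulating growth factor, of Igfals, whose product holds IGF1 in a long-lived serum complex, and of Socs2 and Cish, whose products damp the signal. Mice secrete growth hormone in a sex-dependent pattern. In mouse liver Bcl6, a repressor that competes with STAT5 for DNA, is the higher in males, whereas Cux2, a factor that acts on sex-biased genes, and Prlr, the prolactin receptor, are the higher in females.

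The sex-linked genes set week 2 apart from weeks 0 and 7. Xist, the RNA that silences an X chromosome in female cells, had 10 and 15 deposited counts at week 0, against 13236 and 12804 at week 2 and 0 and 0 at week 7. Ddx3y, a gene on the Y chromosome, had 2113 and 1897 counts at week 0, with 0 and 0 at week 2 and 2045 and 2303 at week 7. Week 2 libraries therefore carried female transcripts and the others male transcripts, so time and sex cannot be told apart in any comparison with week 2. Week 7 against week 0 is the comparison free of that difference, and is given first for each gene.

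The promoter sequences of the axis genes were searched for TTCNNNGAA, the palindromic letters to which STAT dimers bind, which read the same on both strands. RefSeq windows of 250 bases before to 50 bases after a start (build GRCm38.p6) were at hand for 9 of the 10 genes, 18 windows in all, and not for Socs2. At least 1 match lay in 8.3% of 32851 such windows, at least 2 matches in 0.457% and at least 3 in 0.0335%. The axis genes had 9 matches in 6 of their 18 windows, in Prlr, Igfals, Cish and Bcl6. Bcl6, which had the largest fall of the 10 at week 2 against week 0, had 1 match upstream of 1 start and 3 upstream of the other. The 250 bases before that second start are shown whole because of these 3 matches, with the matching letters in capitals (minus strand, no annotated exon), 5′ to 3′.
Bcl6, chr16:23981284-23981533: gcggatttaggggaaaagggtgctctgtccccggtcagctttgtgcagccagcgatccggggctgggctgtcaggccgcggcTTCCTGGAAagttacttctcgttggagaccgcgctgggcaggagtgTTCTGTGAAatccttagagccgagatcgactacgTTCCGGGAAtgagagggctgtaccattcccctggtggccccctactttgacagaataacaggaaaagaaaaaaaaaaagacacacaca

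The other 6 matches are shown with the bases around them, since each lies by a gene whose level is followed below; capitals mark the match. In Prlr the match starts 110 bases before the start, in Igfals 236 bases before 1 start and 58 bases before another, and in Bcl6 118 bases before the start. Cish had a pair of matches at its start, separated by 2 bases, and 0.457% of windows hold that many.
Prlr, chr15:10223786-10223814, plus strand: gcaaaatgagTTCTAGGAAtaagggatat
Igfals, chr17:24877598-24877626, plus strand: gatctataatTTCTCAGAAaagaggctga
Igfals, chr17:24878163-24878191, plus strand: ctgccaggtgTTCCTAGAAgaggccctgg
Cish, chr9:107296654-107296683, plus strand, within a Cish exon: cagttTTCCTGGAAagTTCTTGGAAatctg
Bcl6, chr16:23988952-23988980, minus strand: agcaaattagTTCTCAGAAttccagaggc
A match is a description of letters, not a measured binding site, and the windows of Ghr, Stat5a, Stat5b, Igf1 and Cux2 held none.

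The hormone receptor Ghr, the hormone Igf1, its serum partner Igfals and the repressor Bcl6 were lower at week 7 than at week 0, Stat5a was higher, and the other 5 genes were not called. A call is an adjusted p under 0.05 in edgeR's quasi-likelihood test over all 15368 genes. In week 7 against week 0, 1 of 10 axis genes was higher, where 7.58% of all tested genes were higher, and 4 of 10 were lower, where 6.23% were. In week 2 against week 0, 6 of 10 were higher against 9.81% of all genes, and 2 of 10 were lower against 8.81%. In week 7 against week 2, 2 of 10 were higher against 10.1%, and 5 of 10 were lower against 9.73%. The median log2 fold change of the 10 genes was 0.0063 for week 7 against week 0, 0.74 for week 2 against week 0 and -0.66 for week 7 against week 2, where the medians of all tested genes were 0.0016, 0.014 and -0.0042. These comparisons share libraries and are not independent of each other. Under total-count scaling the split of all genes in week 2 against week 0 moved from 1508 higher and 1354 lower to 2007 higher and 913 lower, and the axis genes called were the same.

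**Figure D1:**
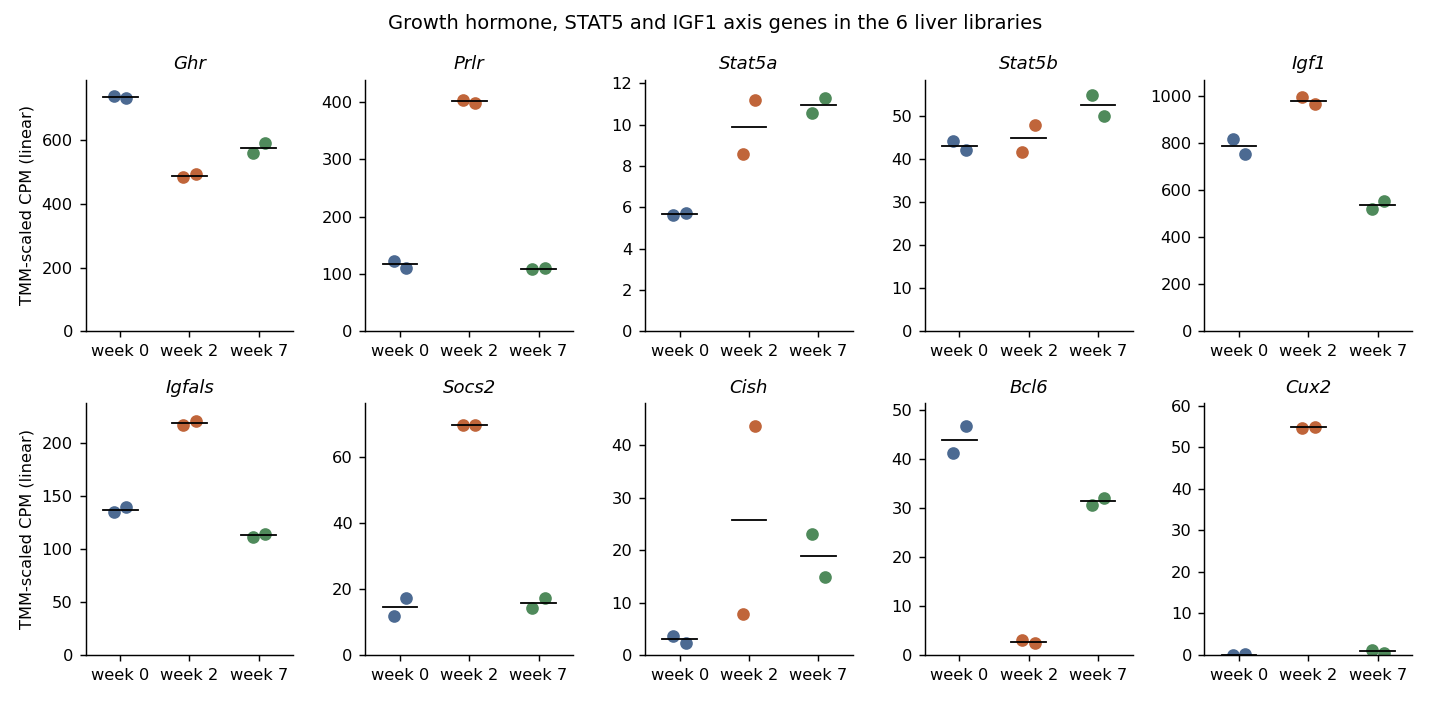
Level of each of the 10 axis genes in the 6 libraries, as CPM (TMM-scaled, linear axes from 0, a separate scale per gene); points are libraries and bars the mean of 2. Prlr, Socs2 and Cux2 stand highest and Bcl6 lowest at week 2, Igf1 and Igfals are lowest at week 7, and the Cish libraries of week 2 lie far apart.

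Ghr, which receives growth hormone, fell at both later weeks. In counts relative to 1e6 counts of TMM-scaled library size (CPM), its level was 741 and 733 at week 0, then 485 and 494 at week 2 and 561 and 592 at week 7, with no overlap between weeks. Ghr was 1.28-fold lower at week 7 than at week 0 (log2 fold change -0.35, SE 0.036, edgeR adjusted p = 0.000356) and 1.51-fold lower at week 2 than at week 0 (log2 fold change -0.59, SE 0.037, edgeR adjusted p = 7.12e-06). From week 2 to week 7 it was 1.18-fold higher (edgeR adjusted p = 0.00213). In bulk RNA of this kind, fewer cells of a type and less RNA per cell cannot be told apart.

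Prlr, the receptor of prolactin that also signals through STAT5, had 122 and 111 CPM at week 0, against 403 and 399 at week 2 and 108 and 110 at week 7. Both week 2 libraries lay far above the other 4, and the week 7 libraries lay just under those of week 0. It was 3.44-fold higher at week 2 than at week 0 (log2 fold change 1.78, SE 0.054, edgeR adjusted p = 5.45e-08) and 3.68-fold lower at week 7 than at week 2 (edgeR adjusted p = 4.38e-08). Week 7 and week 0 differed by a log2 fold change of -0.10 (95% interval -0.22 to 0.02, edgeR adjusted p = 0.275), which was not called. Of its exon bases, 1.32% are shared with Gm21973, a same-strand gene that had at most 11 counts in any library.

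Stat5a, the less abundant of the pair per kilobase, rose, whereas Stat5b, the main STAT5 of liver, was not called in any comparison. Stat5a had 5.61 and 5.70 CPM at week 0, with 8.59 and 11.2 at week 2 and 10.5 and 11.3 at week 7. All 4 later libraries lay above both week 0 libraries, and weeks 2 and 7 overlapped. Stat5a was 1.93-fold higher at week 7 than at week 0 (log2 fold change 0.95, SE 0.18, edgeR adjusted p = 0.00838). At week 2 it was 1.75-fold higher than at week 0 (log2 fold change 0.81, SE 0.18, edgeR adjusted p = 0.0128). That call was lost without week 0 replicate 1, week 0 replicate 2 or week 2 replicate 2, with edgeR adjusted p of 0.0596, 0.0513 and 0.0967, and the adjusted p ran from 0.00152 to 0.0967 over the alternatives tried. Stat5a shares 72 exon bases, 1.01% of its exons, with Stat3 on the opposite strand, which had 2593 to 4424 counts per library, and the kit does not mark strand.

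Stat5b had 44.1 and 42.0 CPM at week 0, then 41.6 and 47.9 at week 2 and 54.9 and 49.95 at week 7. Both week 7 libraries were the highest of the 6, but the difference from week 0 did not pass the test (log2 fold change 0.28, 95% interval 0.07 to 0.50, edgeR adjusted p = 0.0837). Week 2 against week 0 gave 0.06 (95% interval -0.16 to 0.27, edgeR adjusted p = 0.752).

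Igf1, Igfals and Igfbp3, whose products form the circulating complex that carries most IGF1, were all highest at week 2 and lowest at week 7. Igf1 had 820 and 755 CPM at week 0, against 996 and 968 at week 2 and 521 and 553 at week 7, with no overlap between weeks. It was 1.47-fold lower at week 7 than at week 0 (log2 fold change -0.55, SE 0.047, edgeR adjusted p = 0.000124). It was 1.25-fold higher at week 2 than at week 0 (log2 fold change 0.32, SE 0.047, edgeR adjusted p = 0.00163) and 1.83-fold lower at week 7 than at week 2 (edgeR adjusted p = 3.31e-06).

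Igfals, which encodes the acid-labile subunit of the complex, had 135 and 140 CPM at week 0, with 218 and 221 at week 2 and 112 and 115 at week 7. Its weeks stood in the order of Igf1, again with no overlap. It was 1.21-fold lower at week 7 than at week 0 (log2 fold change -0.28, SE 0.047, edgeR adjusted p = 0.00481) and 1.60-fold higher at week 2 than at week 0 (log2 fold change 0.68, SE 0.047, edgeR adjusted p = 1.47e-05). From week 2 to week 7 it fell by 0.96 on the log2 scale (edgeR adjusted p = 1.91e-06).

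Igfbp3, the binding protein of the same complex and no member of the list, had 19.4 and 20.2 CPM at week 0, then 53.7 and 46.3 at week 2 and 13.8 and 12.9 at week 7. It was 1.49-fold lower at week 7 than at week 0 (edgeR adjusted p = 0.00845) and 2.52-fold higher at week 2 than at week 0 (edgeR adjusted p = 3.49e-05). The week 7 call was lost without week 7 replicate 2 (edgeR adjusted p = 0.0519; 0.000248 to 0.0519 over the alternatives).

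Igfbp1, an insulin-repressed binding protein made by hepatocytes, rose at week 7. It had 12.2 and 10.4 CPM at week 0, against 14.6 and 17.1 at week 2 and 38.6 and 44.3 at week 7, a 3.66-fold rise over week 0 (log2 fold change 1.87, SE 0.13, edgeR adjusted p = 4.44e-05). Igf2r, which takes up IGF2 for breakdown, had 34.0 and 33.5 CPM at week 0, with 31.7 and 36.4 at week 2 and 72.4 and 70.7 at week 7, and was 2.12-fold higher at week 7 than at week 0 (edgeR adjusted p = 8.55e-05). Igfbp5 was 2.31-fold higher at week 2 than at week 0 (edgeR adjusted p = 0.00105). Of 14 other IGF ligands, receptors and binding proteins listed, 10 were tested. At week 7 against week 0, 2 were higher and 1 lower, where 7.58% and 6.23% of all tested genes were. At week 2 against week 0, 4 were higher and 0 lower, where 9.81% and 8.81% of all tested genes were. At week 7 against week 2, 2 were higher and 4 lower, where 10.1% and 9.73% of all tested genes were.

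**Figure D2:**
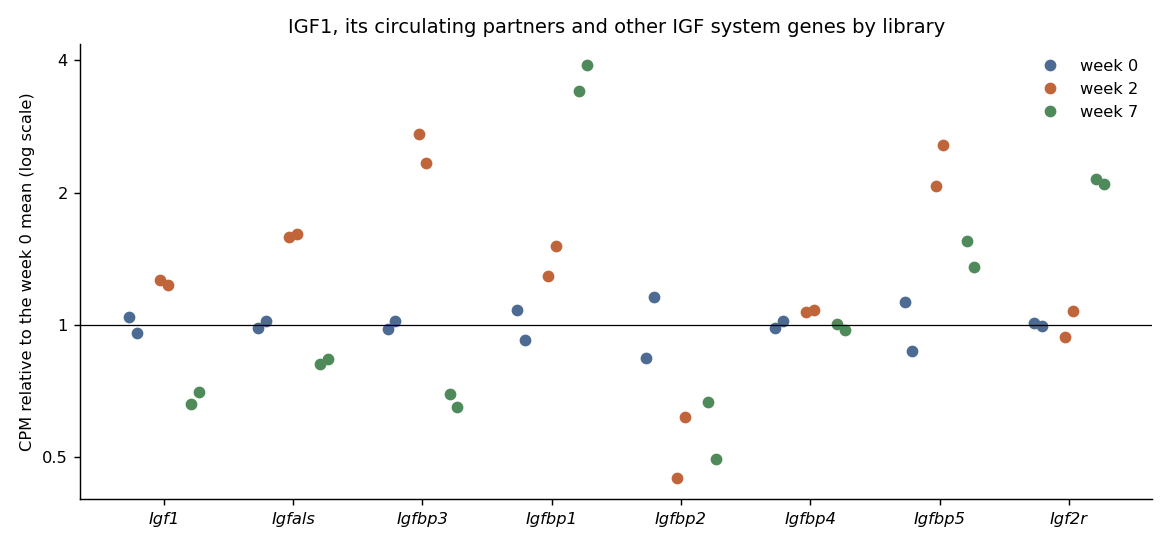
CPM of Igf1, Igfals and 6 other IGF system genes in each library relative to the mean of the 2 week 0 libraries (log axis; line at 1); points are libraries. Igf1, Igfals and Igfbp3 are highest at week 2 and lowest at week 7, Igfbp1 and Igf2r are highest at week 7, and Igfbp4 stays close to 1.

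The summed markers of Kupffer, stellate and endothelial cells were highest at week 2 and lowest at week 7, as were Igf1, Igfals and Igfbp3, whereas for 3 other cell types the week 7 libraries did not both lie below those of week 0. The summed level of 7 Kupffer cell markers, relative to the week 0 mean, was 1.36 and 1.37 at week 2 and 0.734 and 0.718 at week 7. That of 10 stellate cell and fibroblast markers was 1.53 and 1.55 at week 2 and 0.685 and 0.731 at week 7, and that of 8 endothelial markers 1.23 and 1.19 and then 0.898 and 0.913. Of the 7 Kupffer markers all 7 were lower at week 7 than at week 0 in edgeR, as were 5 of 10 stellate and 1 of 8 endothelial markers, while 1 stellate marker, Reln, was higher (1.60-fold, edgeR adjusted p = 0.00064). At week 2, 5, 6 and 4 markers of these lists were higher than at week 0, and 1 stellate marker, Lrat, was lower (1.49-fold, edgeR adjusted p = 0.0077). Relative to the week 0 mean, B and plasma cell markers summed to 3.21 and 3.57 at week 2 and 4.50 and 4.83 at week 7, at no more than 7.33 CPM in any library. The week 7 sum is mostly Jchain (mean 5.10 CPM), which was not called against week 0 (edgeR adjusted p = 0.253). Of these 6 markers, 0 were higher and 1, Ms4a1, was lower at week 7 than at week 0 (edgeR adjusted p = 0.0344). T and NK cell markers summed to 2.03 and 1.92 of the week 0 mean and then 1.02 and 1.03, and bile duct markers to 1.55 and 1.89 and then 0.974 and 1.002. The bile duct sum is mostly Spp1 (mean 15.2 CPM at week 0). Of 5 tested bile duct markers, Krt19 alone was called at week 7, 8.95-fold higher than at week 0 (edgeR adjusted p = 0.0011). Its mean was 0.513 CPM at week 0 and 4.60 at week 7. The 8 hepatocyte markers summed to 88315 to 122910 CPM per library, highest at week 2 and lowest at week 7, at 1.22 and 1.16 of the week 0 mean at week 2 and 0.875 and 0.877 at week 7. Taken singly, 7 of the 8 hepatocyte markers were lower and 1 higher at week 2 than at week 0, and 4 lower and 1 higher at week 7. Of all tested genes, 9.81% were higher and 8.81% lower at week 2, and 7.58% and 6.23% at week 7. No marker of the Kupffer, stellate, endothelial and hepatocyte lists was at 0 in every library. The part of the markers in the levels of Igf1, Igfals and Igfbp3 was not tested.

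**Figure D3:**
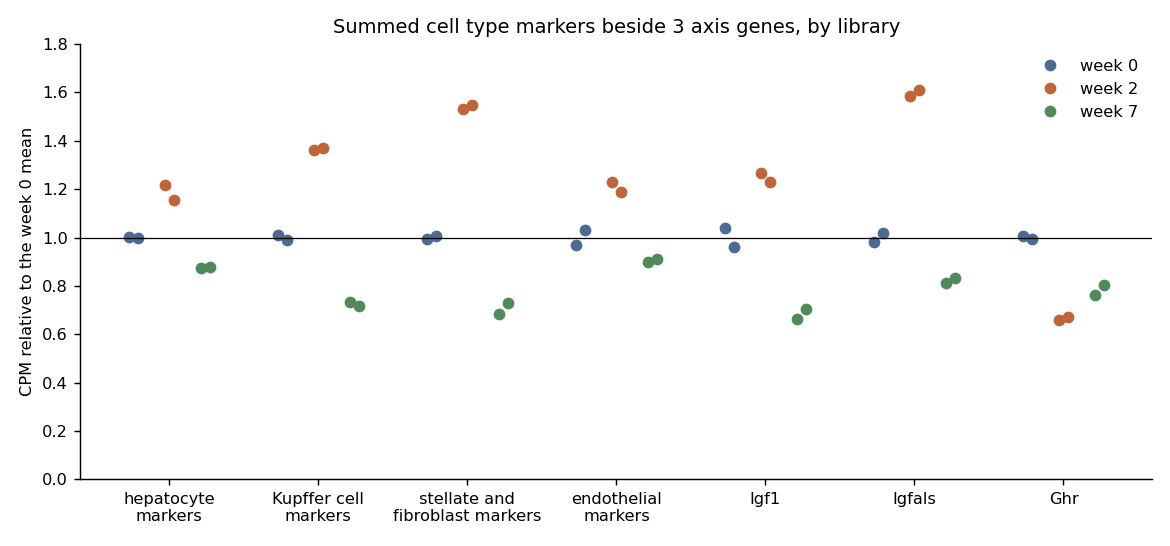
Summed CPM of 4 cell type marker lists beside the CPM of Igf1, Igfals and Ghr, each relative to its week 0 mean (linear axis from 0, line at 1); points are libraries. The 4 marker sums, Igf1 and Igfals are above 1 at week 2 and below 1 at week 7, and Ghr is below 1 at both. The hepatocyte sum is mostly Alb, and the other 7 hepatocyte markers were lower at week 2 than at week 0.

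Socs2 and Cish are STAT5 targets whose products restrain the receptor. Socs2 had 11.9 and 17.3 CPM at week 0, then 69.8 and 69.8 at week 2 and 14.3 and 17.3 at week 7. Both week 2 libraries lay far above the others, and weeks 0 and 7 overlapped. Socs2 was 4.78-fold higher at week 2 than at week 0 (log2 fold change 2.26, SE 0.19, edgeR adjusted p = 0.000272) and 4.43-fold lower at week 7 than at week 2 (edgeR adjusted p = 0.000341). Week 7 against week 0 gave a log2 fold change of 0.11 (95% interval -0.32 to 0.54, edgeR adjusted p = 0.778).

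Cish had 3.65 and 2.24 CPM at week 0, against 7.89 and 43.6 at week 2 and 23.0 and 14.8 at week 7. All 4 later libraries lay above both week 0 libraries, and the week 2 libraries differed from each other 5.53-fold. Only 1.58% of 10993 genes differed over 2-fold between the week 2 libraries. These were genes with a mean over 2 CPM across the 6 libraries and with counts in both week 2 libraries. The edgeR fit gave a log2 fold change of 2.68 for week 7 against week 0 (95% interval -0.63 to 6.00, adjusted p = 0.253) and of 3.13 for week 2 against week 0 (95% interval -0.23 to 6.48, adjusted p = 0.181), so neither was called. In edgeR the call at week 7 changed with the week 2 libraries in the fit, which share the estimate of spread, and the cause was not tested. With only the 4 libraries of weeks 0 and 7 in edgeR, the adjusted p was 0.0073, and it was 0.0186 without week 2 replicate 1 and 0.00635 without week 2 replicate 2. DESeq2 called Cish at week 7 (adjusted p = 0.0337) and at week 2 (adjusted p = 0.00773), and edgeR without week 2 replicate 1 called week 2 as well (adjusted p = 0.00815). Over all alternatives the adjusted p ran from 0.00635 to 0.559 at week 7 and from 0.00773 to 0.476 at week 2. Antisense genes share 7.46% (Gm17041) and 4.07% (Gm17040) of the Cish exon bases, and had at most 9 counts in any library.

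Socs3, the family member induced mainly by STAT3, is in the list of 6 other SOCS genes. It had 3.89 and 3.92 CPM at week 0, with 12.0 and 11.5 at week 2 and 17.3 and 17.3 at week 7, with no overlap between weeks. It was 4.44-fold higher at week 7 than at week 0 (log2 fold change 2.15, SE 0.14, edgeR adjusted p = 2.41e-05) and 3.02-fold higher at week 2 than at week 0 (edgeR adjusted p = 6.37e-05). It was the only called gene of that list in both comparisons with week 0. Of all tested genes, 7.58% were higher at week 7 and 9.81% at week 2.

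Bcl6, the repressor, had 41.2 and 46.8 CPM at week 0, then 2.99 and 2.498 at week 2 and 30.7 and 32.1 at week 7. Week 2 stood far below, and week 7 lay under week 0 without overlap. It was 16.0-fold lower at week 2 than at week 0 (log2 fold change -4.00, SE 0.13, edgeR adjusted p = 9.09e-08) and 11.4-fold higher at week 7 than at week 2 (edgeR adjusted p = 2.71e-07). At week 7 it was 1.40-fold lower than at week 0 (log2 fold change -0.49, SE 0.11, edgeR adjusted p = 0.0227). That call was lost without week 0 replicate 2, week 7 replicate 1 or week 7 replicate 2, with edgeR adjusted p of 0.152, 0.129 and 0.0815 (0.00317 to 0.152 over the alternatives).

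Cux2 was close to absent outside week 2. It had 0 and 8 counts at week 0, against 3275 and 3251 at week 2 and 65 and 23 at week 7, or 0 and 0.166 CPM, 54.6 and 54.9 CPM, and 1.20 and 0.450 CPM. Each read pair was assumed to stand for 4 deposited counts, which makes 2 pairs at week 0, 1632 at week 2 and 22 at week 7. The ground for this was the low values of the table, from 4 to 43 counts. Of these, 68.3% to 69.6% per library were multiples of 4 or 1 above, more than evenly spread values would give. The pairs and the counting intervals that follow rest on this assumption. The depth-scaled ratio was 672 for week 2 to week 0 (95% counting interval 186 to 5552) and 10.3 for week 7 to week 0 (2.52 to 90.1), and these intervals cover counting error only. In edgeR, Cux2 was higher at week 2 than at week 0 (adjusted p = 0.00568) and lower at week 7 than at week 2 (adjusted p = 0.00857). The latter was lost without week 2 replicate 1 or week 2 replicate 2 (edgeR adjusted p = 0.0544 and 0.0538; 7.46e-06 to 0.0544 over the alternatives). Week 7 against week 0 was not called in edgeR (adjusted p = 0.157), and was called with counts divided by 4 (adjusted p = 0.0395; 0.0395 to 0.330 over the alternatives).

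**Figure D4:**
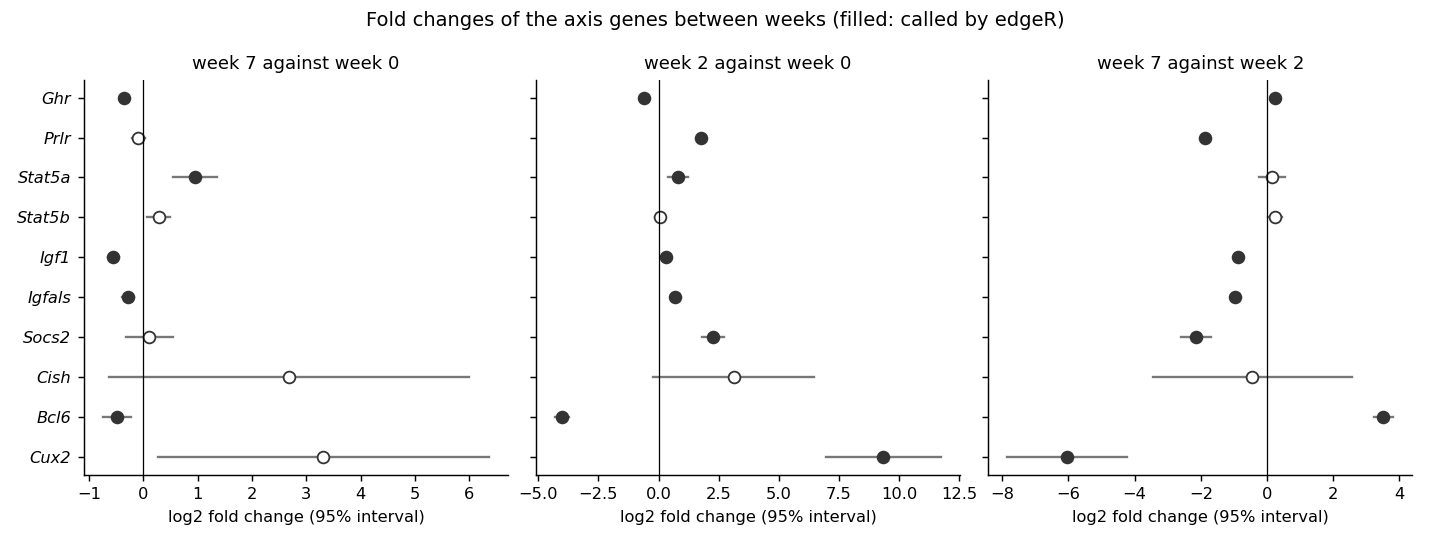
Log2 fold change of each axis gene in the 3 comparisons from the edgeR fit, with 95% intervals as lines; filled points are called, open points are not, and the scale of the axis differs between panels. Bcl6 and Cux2 have the widest shifts in both comparisons with week 2, and Cish has an interval across 0 in all 3; the position of Cux2 against week 0 depends on the prior count of the fit.

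Per kilobase of exon, Ghr (81.4 CPM per kb) and Igf1 (79.5) led at week 0 with overlapping ranges, followed by Igfals (43.4). Stat5b (7.78) and Prlr (7.61) overlapped as well, followed by Bcl6 (6.57), Socs2 (1.53), Stat5a (0.793), Cish (0.458) and Cux2 (0.0082). At week 2 Igf1 led with 99.2 CPM per kb, then came Igfals (69.3), Ghr (54.1) and Prlr (26.1). Stat5b (8.09), Socs2 (7.32), Cux2 (5.43), Cish (4.01) and Stat5a (1.39) followed, and Bcl6 was last (0.409). The Cish libraries of week 2, at 1.23 and 6.80 CPM per kb, spanned the levels of Stat5a and Cux2. At week 7 the order Ghr (63.7), Igf1 (54.2), Igfals (35.7), Stat5b (9.47), Prlr (7.11) and Bcl6 (4.68) was that of week 0. Cish (2.95) came next, above Socs2 (1.65) and Stat5a (1.53), whose ranges overlapped. These levels divide by all annotated exon bases of a gene, so a gene with long unused exons reads low.

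Of 15 kinases, adaptors and phosphatases of the pathway, 1 was higher and 0 lower at week 7 than at week 0 (median log2 fold change 0.087). That is near the share of all tested genes, 7.58% higher and 6.23% lower. At week 2 against week 0, 2 were higher and 2 lower, where 9.81% and 8.81% of all tested genes were. The gene higher at week 7 was Irs1, an adaptor of the insulin and IGF1 receptors, with 22.0 and 20.7 CPM at week 0 and 32.2 and 34.9 at week 7 (1.57-fold, edgeR adjusted p = 0.00392). Jak2, the kinase of the growth hormone and prolactin receptors, was not called. Its levels were 19.1 and 16.5 CPM at week 0, with 21.0 and 15.6 at week 2 and 16.7 and 21.7 at week 7, which overlap. At week 2 the adaptor Sh2b2 was 3.18-fold higher than at week 0 (edgeR adjusted p = 0.00454) and Shc1 was 1.34-fold lower (edgeR adjusted p = 0.00555).

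Stat3, which carries the signal of interleukin-6 and related cytokines, was 1.36-fold higher at week 2 than at week 0 (edgeR adjusted p = 0.0017). Of 13 tested receptors of the same class as Ghr, 1 was higher and 0 lower at week 7 than at week 0. That is near the share of all tested genes, 7.58% higher and 6.23% lower. At week 2 against week 0, 6 were higher and 2 lower, where 9.81% and 8.81% of all tested genes were. Il6ra, the interleukin-6 receptor, was 1.36-fold higher at week 7 than at week 0 (edgeR adjusted p = 0.0166), a call lost without week 0 replicate 1 or week 7 replicate 2 (edgeR adjusted p = 0.105 and 0.0891; 0.00202 to 0.105 over the alternatives). Lifr, the receptor of leukaemia inhibitory factor, had 518 and 504 CPM at week 0, then 931 and 913 at week 2 and 498 and 515 at week 7, so that its week 2 libraries, like those of Prlr, stood above all others.

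Of 9 other growth hormone or STAT5 targets, 3 were higher and 3 lower at week 7 than at week 0 (median log2 fold change 0.12). Of all tested genes, 7.58% were higher and 6.23% lower. At week 2 against week 0, 1 was higher and 3 lower (median -0.14), where 9.81% and 8.81% of all tested genes were. Egfr, the epidermal growth factor receptor, had 645 and 605 CPM at week 0, against 197 and 199 at week 2 and 348 and 343 at week 7, which is the order of weeks seen for Ghr. It was 1.81-fold lower at week 7 than at week 0 (edgeR adjusted p = 4.01e-06) and 3.16-fold lower at week 2 than at week 0 (edgeR adjusted p = 1.63e-08). Ccnd1, the cyclin D1 gene, was 2.80-fold lower at week 7 than at week 0 (edgeR adjusted p = 1.4e-06). Trib1 and Pim3, a pseudokinase and a kinase gene, were 1.44-fold and 1.31-fold higher at week 7 than at week 0 (edgeR adjusted p = 0.0034 and 0.00431).

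The genes whose liver level follows the sex pattern of growth hormone were read beside Bcl6 and Cux2. At week 2, edgeR called 17 of 17 female-biased genes higher than at week 0 and 15 of 15 tested male-biased genes lower, in the libraries with female transcripts. Of all tested genes, 9.81% were higher and 8.81% lower. Some genes passed the filter on low counts only through the weeks where they are high, so their week 2 calls are no evidence of their own. Sult2a1 had 4 counts in all at week 0, 36846 at week 2 and 3 at week 7. Cyp4a12b, a male-biased gene, had 0 at week 2. At week 7, where the libraries carried male transcripts, 7 of 17 female-biased genes were higher than at week 0 and 0 lower, and 8 of 15 male-biased genes were lower and 1 higher. Of all tested genes, 7.58% were higher and 6.23% lower, and the 17 include genes such as Sult2a1 that were near 0 in both weeks. The median log2 fold change at week 7 against week 0 was -0.38 for the male-biased genes. For the female-biased genes it was 0.98 in the fit, and 0.93 with 1 gene under 3 read pairs in both weeks left out and 1 gene at 0 in a week set to its bound. Cyp2b9, a female-biased cytochrome, had 1.26 and 1.14 CPM at week 0, with 384 and 386 at week 2 and 30.3 and 29.9 at week 7. Abcd2, a peroxisomal fatty acid carrier, had 12.2 and 12.5 CPM at week 0, then 76.2 and 73.9 at week 2 and 24.97 and 28.6 at week 7, 2.17-fold higher at week 7 than at week 0 (edgeR adjusted p = 0.000107). Both week 7 levels lay between those of weeks 0 and 2.

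Among male-biased genes, Cyp7b1, an oxysterol hydroxylase, had 466 and 448 CPM at week 0, against 80.9 and 78.9 at week 2 and 309 and 322 at week 7, 1.45-fold lower at week 7 than at week 0 (edgeR adjusted p = 8.17e-05). Hsd3b5, a steroid dehydrogenase, had 262 and 249.8 CPM at week 0, with 8.57 and 8.59 at week 2 and 189 and 193 at week 7, 1.34-fold lower at week 7 than at week 0 (edgeR adjusted p = 0.000621). Elovl3, a fatty acid elongase, was the exception, 1.52-fold higher at week 7 than at week 0 (edgeR adjusted p = 0.00786), a call lost without week 0 replicate 1 or week 7 replicate 1 (edgeR adjusted p = 0.0516 and 0.0688; 7.61e-05 to 0.0688 over the alternatives). Several cytochrome, sulfotransferase and urinary protein genes of these lists have near-identical copies between which reads can be divided, so the values of single genes there, Cyp2b9 among them, are uncertain.

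Lipid storage genes that STAT5 is known to hold down were listed too, 8 in number with 6 tested. Cd36, a fatty acid transporter, had 9.04 and 11.9 CPM at week 0, then 36.9 and 37.4 at week 2 and 16.8 and 18.8 at week 7. It was 1.70-fold higher at week 7 than at week 0 (edgeR adjusted p = 0.00832), a call lost without week 7 replicate 2 (edgeR adjusted p = 0.0523; 0.000153 to 0.0523 over the alternatives). It was the only gene of the list called at week 7 against week 0, and with Fabp4 (2.24-fold, edgeR adjusted p = 0.0118) 1 of 2 higher at week 2 than at week 0. Of all tested genes, 7.58% were higher at week 7 and 9.81% at week 2. The Fabp4 call was lost on leaving out week 0 replicate 2 (edgeR adjusted p = 0.0624), week 2 replicate 1 (0.0602) or week 2 replicate 2 (0.0529), with a range of 0.000929 to 0.0624 over the alternatives.

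Profiles most like Igf1 and Cish were ranked over the 6 libraries by the root mean square difference in log2 CPM about each gene's own mean, among genes with at least 5 CPM in every week. The nearest to Igf1 of 8587 genes were Kyat3 (0.029), Ctsh (0.032) and Wfdc17 (0.037). Kyat3 had 191 and 186 CPM at week 0, against 234 and 230 at week 2 and 124 and 128 at week 7. Cish had no such close neighbour, with Rab43 (0.70), Rhbg (0.77) and Slc1a2 (0.78) the nearest of 8588. Rab43 had 28.9 and 30.001 CPM at week 0, with 34.5 and 338 at week 2 and 307 and 290.0 at week 7. Its week 2 libraries lay apart in the direction of those of Cish, but it was chosen for likeness over these same libraries. Those of Rhbg (70.6 and 68.0 CPM) and Slc1a2 (249 and 263 CPM) lay close together at week 2.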

How the data were processed

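RNA with a poly-A tail was sequenced as read pairs from TruSeq V2 libraries, per the labels' protocols; this kit does not mark strand. Bowtie 0.12.2 and mm8 are named in the submitters' processing notes without a role. How genes were counted is not given in the sources used here. In the table the authors deposited are unscaled estimated counts by Ensembl gene, all of them whole. Symbols for 54409 of 54446 identifiers, exon lengths and overlaps came from GENCODE M21. Since the table has identifiers newer than mm8, its build is unsure. Coordinates printed are RefSeq's on GRCm38.p6.

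Counts were filtered (filterByExpr), TMM-scaled and fitted in R 4.3.3 with edgeR 4.0.16 (robust quasi-likelihood, 1 coefficient per week, 6 libraries, 3 residual degrees of freedom, common BCV of 0.209). Tests were 2-sided with Benjamini-Hochberg adjustment over 15368 genes. The SE is the log2 fold change over the root of F, and intervals use the fit's degrees of freedom. CPM were computed from the deposited counts per 1e6 scaled library counts. Groups and replicate numbers came from the sample titles. Nothing states that libraries are separate animals, so p-values measure the spread between these libraries, which may be technical. Correlations of same-numbered replicate differences were -0.046, -0.069 and -0.13, so for genes at large they did not go together across weeks. Most of these differences were small, so the correlations cannot exclude that the numbers pair samples. The steps were tested on simulated data. Figures were drawn with matplotlib 3.10.9.

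Members and lists were chosen with earlier results of these data known. Beside the members, the text names up to 2 called genes per direction of each list, by adjusted p, at 1 CPM or more, in the comparisons with week 0, and 3 profiles each like Igf1 and Cish. A gene that this rule names is not reported here. Jak2 and, in the figure, Igfbp2 and Igfbp4 were added with their values known. The fit was repeated with other scalings, no filter, DESeq2 1.42.0, the 4 compared libraries alone, a replicate block, a library left out at a time and counts divided by 4.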

Additional observations from a re-analysis of the deposited data

How the results depend on the processing

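The number of axis genes called was 5 for week 7 against week 0, 8 for week 2 against week 0 and 7 for week 7 against week 2, and ran from 4 to 6, 7 to 9 and 6 to 7 with each library left out. With a replicate block the numbers were again 5, 8 and 7, and the same genes were called. With the week 7 replicate numbers crossed in the block, added after the data were seen, 7 were called in week 7 against week 2. Of 430 alternative values for the axis genes, 410 kept direction and side of the threshold. The other 20 were values of Stat5a, Stat5b, Bcl6, Cux2, Cish and Socs2. The block ended 1 call of another named gene, Igfbp1 at week 2 against week 0 (adjusted p = 0.0574 in edgeR).

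Values without a call changed sign when a library was left out, and the cause was not tested. The log2 fold change ran from -0.13 to 0.40 for Socs2, -0.058 to 0.16 for Irs2, -0.038 to 0.011 for Lifr and -0.0011 to 0.62 for Fabp4 (week 7 against week 0). It ran from -0.057 to 0.11 for Irs1, -0.047 to 0.15 for Stat5b and -0.087 to 0.11 for Igf2r (week 2 against week 0), and from -0.035 to 0.35 for Stat5a and -1.20 to 1.26 for Cish (week 7 against week 2). With total counts only, Lifr at week 7 against week 0 was 0.022. Depth limited Cux2 at week 0, where both libraries lay under the 12 counts that 3 read pairs make.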

Other observations

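Insr, the insulin receptor and a relative of the IGF1 receptor, had 27.8 and 66.3 CPM at week 0, then 23.5 and 68.5 at week 2 and 40.03 and 88.3 at week 7. It was higher in replicate 2 than in replicate 1 at each week and was not called in any comparison in edgeR (adjusted p = 0.833, 0.989 and 0.800 for week 7 against week 0, week 2 against week 0 and week 7 against week 2). Igf1r, the receptor of IGF1 itself, lay between 1.15 and 2.19 CPM in the 6 libraries, and Igf2 between 0 and 0.137 CPM. These 3 genes were chosen after their values were seen.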
